A study of Mus musculus with 8 samples.

Results

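Heat shock proteins and their DnaJ partners fold new proteins, hold unfolding ones and hand them to degradation. The set described here holds 10 genes. Among them are the DnaJ proteins Dnaja1, Dnajb1 and Dnajb4 and the inducible HSP70 genes Hspa1a and Hspa1b. The others are Hsph1, Bag3, the small heat shock proteins Hspb1 and Hspb8, and the chaperonin Hspd1. All were chosen by name, with earlier results of these data known. They are 10 of 18193 genes that a probe set with 1 gene symbol names, and every one of their 21 probe sets was kept, with no filter on low values.

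The arrays came from 7438 cells, a mouse mammary line that makes a GFP-tagged glucocorticoid receptor (GR) and a Cherry-tagged estrogen receptor (ER), both from a tetracycline-regulated promoter. The groups were Dex (100 nM dexamethasone, a synthetic glucocorticoid, for 2 hours), E2 (100 nM estradiol for 2 hours), Dex + E2 (100 nM of each for 2 hours) and Untreated, with 2 arrays each. Cells of all 4 groups, Untreated included, were kept for 48 hours in charcoal-dextran serum, which is poor in steroids. For the last 24 hours they were also kept without tetracycline, which regulates the promoter of both tagged receptors. How much of either receptor was made was not tested. All groups are of this 1 engineered line, and no label says whether replicate arrays came from separate cultures, so the spread behind the p-values is that of these arrays and may be technical.

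In steroid signalling the HSP70 and HSP90 machines, with DnaJ proteins to load them, keep an unliganded receptor able to bind its hormone. DnaJ proteins bring client proteins to HSP70 and stimulate its ATPase. BAG proteins and HSP110 proteins then release ADP from HSP70. Under heat or protein damage the transcription factor HSF1 binds heat shock elements, which are alternating GAA and TTC units, and raises many genes of this set together. The comparison asked whether hormone treatment moved them.

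Dnajb4 was the 1 gene of the 10 whose probe sets passed the threshold. Its probe set 1451177_at rose by 0.73 ± 0.0945 log2 units with Dex, by 0.88 ± 0.0945 with E2 and by 0.91 ± 0.0945 with Dex + E2, that is 1.66-fold, 1.84-fold and 1.88-fold over Untreated (± standard error from limma, n = 2 arrays each). The other 9 genes, among them the stress-inducible Hspa1b and Dnajb1, had no probe set past the threshold in any of the 8 comparisons fitted. The call rule was an adjusted p under 0.05 (limma, Benjamini-Hochberg over 45037 probe sets). By that rule 2 of the 21 member probe sets were called with Dex, where 0.924% of all probe sets were called and 0.575% were higher. The count was 1 of 21 with E2 (0.0355% of all, 0.0333% higher) and 2 of 21 with Dex + E2 (0.844% of all, 0.471% higher). Each called probe set belonged to Dnajb4 and was higher. The set was chosen with earlier results of these data known, so these shares do not make an independent test.

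The windows printed are a selection, and each gene printed has a match to the heat shock letters. They are those of Dnajb4, which rose and whose 2 starts differ in this, of Hspa1a, Hspa1b and Hspb1, and 1 of Hspd1. Windows of Dnaja1, Hsph1, Dnajb1, Bag3 and Hspb8 and window 2 of Hspd1 are not printed. The genes with a match other than Dnajb4 had no call, and a link of the letters to the rise was not tested. Each window is the 250 bases before a RefSeq start on the gene's strand (GRCm38.p6). Both Dnajb4 windows and Hspd1 window 1 lie inside the RefSeq span of their gene. The bases before the outer end of the Dnajb4 span were not searched. The table matched all 10 genes and gave 16 windows. Capitals mark matches to the heat shock letters GAANNTTC or TTCNNGAA, each of which reads the same on both strands.
Dnajb4 window 1, chr3:152193846-152194095, minus strand: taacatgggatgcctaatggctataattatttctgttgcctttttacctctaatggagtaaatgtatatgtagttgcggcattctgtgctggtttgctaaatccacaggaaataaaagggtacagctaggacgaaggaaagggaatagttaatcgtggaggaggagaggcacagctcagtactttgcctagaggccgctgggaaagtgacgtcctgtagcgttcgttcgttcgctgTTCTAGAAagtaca
Dnajb4 window 2, chr3:152210084-152210333, minus strand: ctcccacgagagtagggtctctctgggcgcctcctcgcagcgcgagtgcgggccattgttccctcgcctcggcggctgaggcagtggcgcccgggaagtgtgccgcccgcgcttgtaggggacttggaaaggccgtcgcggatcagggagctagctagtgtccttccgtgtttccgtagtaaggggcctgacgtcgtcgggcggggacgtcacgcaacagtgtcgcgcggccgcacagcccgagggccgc
Hspa1a, chr17:34972157-34972406, minus strand: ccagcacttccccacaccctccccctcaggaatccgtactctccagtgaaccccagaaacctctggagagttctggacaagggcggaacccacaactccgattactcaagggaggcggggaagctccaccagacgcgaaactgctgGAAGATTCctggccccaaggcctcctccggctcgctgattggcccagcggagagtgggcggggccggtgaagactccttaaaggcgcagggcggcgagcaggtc
Hspa1b, chr17:34959239-34959488, minus strand: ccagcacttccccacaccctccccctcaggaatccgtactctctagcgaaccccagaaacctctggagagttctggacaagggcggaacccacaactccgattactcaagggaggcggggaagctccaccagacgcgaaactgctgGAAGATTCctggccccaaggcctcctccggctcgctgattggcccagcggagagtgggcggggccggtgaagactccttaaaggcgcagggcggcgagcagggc
Hspb1, chr5:135887669-135887918, plus strand: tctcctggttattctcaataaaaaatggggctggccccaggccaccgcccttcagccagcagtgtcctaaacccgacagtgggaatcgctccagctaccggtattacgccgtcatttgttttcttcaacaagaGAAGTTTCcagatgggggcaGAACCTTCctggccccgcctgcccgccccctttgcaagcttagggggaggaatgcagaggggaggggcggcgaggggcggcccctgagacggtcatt
Hspd1 window 1, chr1:55087933-55088182, minus strand: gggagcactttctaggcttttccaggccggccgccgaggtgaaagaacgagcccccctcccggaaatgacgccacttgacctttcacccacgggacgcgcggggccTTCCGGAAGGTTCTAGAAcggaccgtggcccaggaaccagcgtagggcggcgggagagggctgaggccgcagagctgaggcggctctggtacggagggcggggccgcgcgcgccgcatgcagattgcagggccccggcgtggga

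A match was present in 8 of the 16 windows and in 7 of the 10 genes. Over all genes 12.8% of 32851 windows of that length had one. That share is per window, and a gene can have several windows. The Hsph1 windows overlap and hold the same match, and those of Hspa1a and Hspa1b are almost identical. The member windows are thus not independent. Dnajb4 window 1 has its match 14 bases before the start and window 2 has none. Hspa1a and Hspa1b each have 1 match, 104 bases before the start, and Hspb1 has 2, starting 117 and 97 bases before it. Hspd1 window 1 has 3 overlapping matches, and it is the 1 member window with the longer pattern GAANNTTCNNGAA or TTCNNGAANNTTC, which 0.466% of all windows have. No member window held the glucocorticoid receptor letters GNACANNNTGTNC (0.387% of all windows) or the full estrogen receptor palindrome GGTCANNNTGACC (0.0639%), searched on both strands. The shorter estrogen receptor letters AGGTCA stood in a window of Dnaja1 and in one of Hspd1, against 14% of all windows. No window of Dnajb1, Bag3 or Hspb8 held the heat shock letters. A match is a description of the letters, and none says only that the letters are not in that window.

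**Figure D1:**
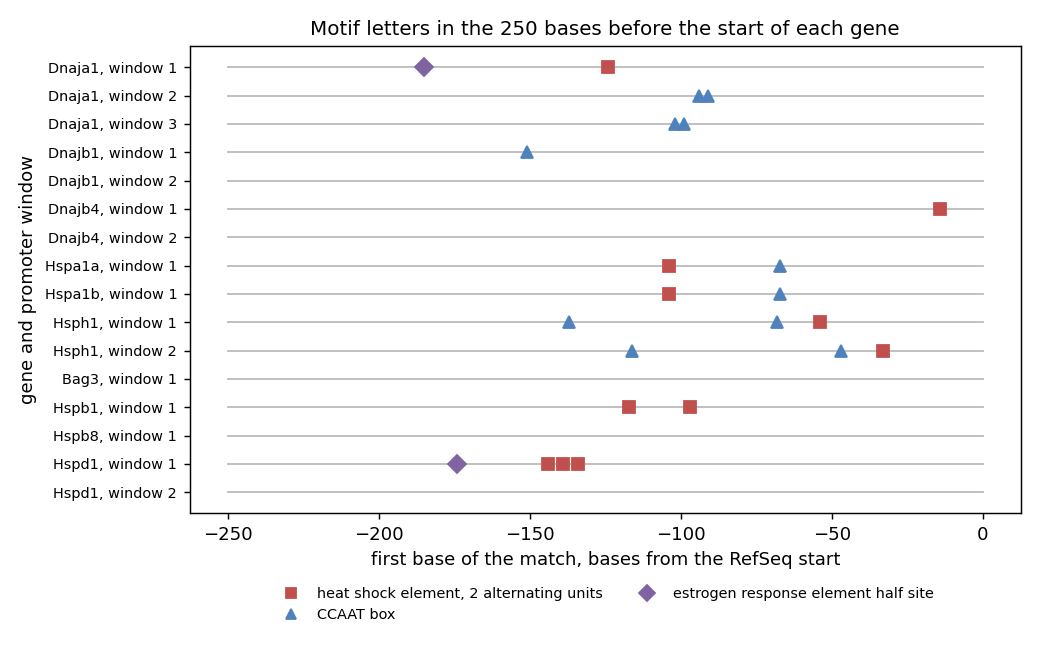
Positions of motif letters in the 250 bases before each RefSeq start of the 10 genes (x axis, bases from the start; y axis, the 16 windows, with windows of a gene numbered by coordinate). Red squares mark GAANNTTC or TTCNNGAA, blue triangles CCAAT and purple diamonds AGGTCA, each at its first base; 7 of the 10 genes carry a red square.

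The median log2 signals of the arrays, over all probe sets, ran from 5.58 to 5.67. Upper quartiles ran from 7.74 to 7.89. The processing gives the probe signals of all arrays 1 distribution before they are summarised, so like medians do not show that the arrays were alike. Replicates correlated at 0.9983 for Dex, 0.9977 for E2, 0.9961 for Dex + E2 and 0.9978 for Untreated. Dex + E2 had 1249 probe sets that differed by over 0.5 log2 units between its replicates, against 92 to 305 in the other groups. A description field of 2 arrays, E2 replicate 2 and Dex + E2 replicate 1, speaks of an immunoprecipitation. By title and treatment label both belong to the groups used here, and results are also given without each. Of 3 known glucocorticoid receptor targets, Per1 (1449851_at), a clock gene, rose by 2.66 ± 0.13 log2 units with Dex, 1.97 ± 0.13 with E2 and 2.41 ± 0.13 with Dex + E2. Fkbp5 (1416125_at), a co-chaperone of HSP90, rose by 1.62 ± 0.114 with Dex and 1.30 ± 0.114 with Dex + E2, while with E2 it did not pass. Tsc22d3 (1420772_a_at) rose by 2.82 ± 0.234 with Dex and by 2.26 ± 0.234 with Dex + E2. With E2 it was 0.97 ± 0.234 above Untreated without passing (limma adjusted p = 0.494). Other probe sets of Fkbp5 and Tsc22d3 disagreed with Dex. For Fkbp5, 1448231_at rose by 1.22, while the dim 1447736_at (percentile 3.255) was -0.01 from Untreated. For Tsc22d3, 1425281_a_at rose by 2.67, while 1425557_x_at (0.49, limma adjusted p = 0.709) and 1444365_at (-0.03) did not pass. Of 9 epithelial markers, 1, Krt14, lay above the upper quartile of levels and 5 lay below the median, Cdh1 (3.25) among them. Of 7 mesenchymal markers 5 lay above the upper quartile, Vim (13.9) among them. Levels of different probe sets also depend on their probes, so these counts are a rough guide. Milk protein, immune cell, and endothelial and adipocyte markers had 0 genes above the upper quartile.

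Dnajb4 encodes a DnaJ protein of class B, a partner of HSP70 in the cytosol, and lies on chromosome 3 (GRCm38.p6, chr3:152181580-152210432). On 1451177_at the log2 signals were 10.50 and 10.57 with Dex, 10.63 and 10.75 with E2, 10.80 and 10.64 with Dex + E2, against 9.84 and 9.78 in Untreated. All 6 hormone arrays lay above both Untreated arrays, a pattern whose share over all probe sets was not computed. The group means were 10.54 ± 0.0517 with Dex, 10.69 ± 0.0879 with E2, 10.72 ± 0.118 with Dex + E2 and 9.81 ± 0.0412 in Untreated (SD, n = 2 each). The limma adjusted p against Untreated was 0.00354 with Dex, 0.0108 with E2 and 0.000923 with Dex + E2. In an extract of a whole culture, more cells with the transcript and more transcript per cell cannot be told apart.

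The second probe set of Dnajb4, 1431734_a_at, gave changes of like size at a lower signal. It read 7.71 and 7.79 with Dex, 7.70 and 8.02 with E2 and 7.96 and 7.74 with Dex + E2, against 7.003 and 7.068 in Untreated. It rose by 0.71 ± 0.12 with Dex (limma adjusted p = 0.0192) and by 0.82 ± 0.12 with Dex + E2 (limma adjusted p = 0.00907). With E2 the difference was 0.82 ± 0.12 and did not pass (limma adjusted p = 0.0704), and the SD of the E2 arrays was 0.231. The third, 1439524_at, was dim, at percentile 36.3 of mean level, and passed nowhere: it was -0.15 from Untreated with Dex, -0.09 with E2 and 0.08 with Dex + E2. Its arrays overlapped those of Untreated with E2 and with Dex + E2. What each probe set reads of the Dnajb4 transcripts was not tested.

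**Figure D2:**
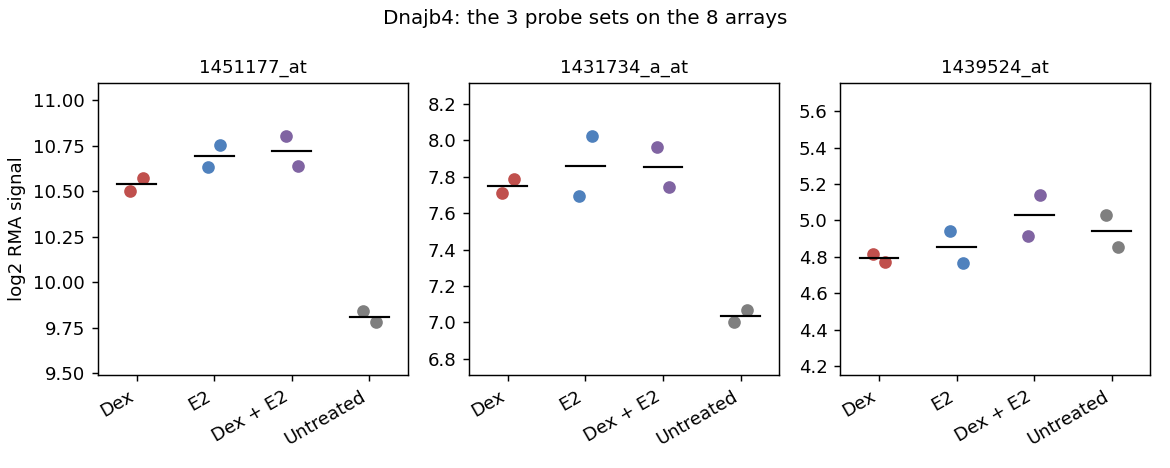
Log2 signal of the 3 Dnajb4 probe sets on each array (y axis, the same span in each panel; x axis, group; points, arrays; lines, means of 2 arrays). On 1451177_at and 1431734_a_at every hormone array lies above the Untreated arrays, and on the dim 1439524_at the groups lie within 4.77 to 5.14.

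With both hormones Dnajb4 stood near its level with E2 alone. On 1451177_at, Dex + E2 exceeded E2 by 0.03 log2 units (95% interval -0.18 to 0.24, limma adjusted p = 0.934) and Dex by 0.18 (-0.03 to 0.39, adjusted p = 0.996). On 1431734_a_at the same differences were -0.01 (-0.27 to 0.26) and 0.10 (-0.16 to 0.37). The Dex by E2 interaction, the change with both hormones less the sum of the changes with each, was -0.70 ± 0.134 (-0.998 to -0.405) on the first and -0.72 ± 0.17 (-1.10 to -0.34) on the second. Neither passed after adjustment over all probe sets (limma adjusted p = 0.642 and 0.798, unadjusted p = 0.000342 and 0.00163), so the interaction of Dnajb4 was not called. The interaction was called for 0 of 21 member probe sets, with 2 at an unadjusted p under 0.05 (5.46% of all), and for 0.00222% of all, 1 probe set, which was Per1 (1449851_at, -2.21). Dex + E2 against Dex was called for 0 of 21 (0.00666% of all, each higher), with 0 at an unadjusted p under 0.05 (4.66% of all). Dex + E2 against E2 was called for 0 of 21 (0.335% of all), with 3 at an unadjusted p under 0.05 (11.8% of all), a count near the background.

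From highest to lowest, 1451177_at ran Dex + E2, E2, Dex, Untreated, and 1431734_a_at ran E2, Dex + E2, Dex, Untreated. The Untreated level stood below its neighbour, Dex, by more than the spread on both. The hormone groups did not differ beyond theirs: E2 minus Dex, a difference added after the values were seen, was 0.15 on 1451177_at (-0.06 to 0.36, limma adjusted p = 0.803) and 0.11 on 1431734_a_at (-0.16 to 0.38, adjusted p = 0.913). Averaged over both states of the other hormone, 1451177_at was 0.38 ± 0.0668 higher with Dex (limma adjusted p = 0.0193; 1 of 21 member probe sets called, 1.37% of all, of which 0.679% higher and 0.693% lower) and 0.53 ± 0.0668 higher with E2 (adjusted p = 0.0244; 1 of 21, 0.0533% of all, of which 0.0488% higher and 0.00444% lower). On 1431734_a_at the averages were 0.35 and 0.46, neither past the threshold (limma adjusted p = 0.104 and 0.153).

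Leaving out 1 array kept the sign of every called Dnajb4 difference and ended several calls. Without E2 replicate 2 the E2 difference on 1451177_at was 0.82 (limma adjusted p = 0.199), without Untreated replicate 1 it was 0.91 (0.221) and without Untreated replicate 2 it was 0.85 (0.247), and none of these passed. Over the whole table the E2 calls dropped to 3 of 45037 in each of those fits, against 16 with all arrays. The Dex difference on 1451177_at missed the threshold without Untreated replicate 2 (adjusted p = 0.0635) and without Dex replicate 2 (0.0652). The Dex + E2 difference passed without each of the 8 arrays in turn, at 0.83 to 0.99 log2 units, and was 0.83 without Dex + E2 replicate 1 (adjusted p = 0.00413). On 1431734_a_at the Dex call was lost without Untreated replicate 1, Untreated replicate 2, Dex replicate 1 or Dex replicate 2 (adjusted p = 0.157 to 0.224). Its Dex + E2 call was lost without Untreated replicate 1 (0.130) or Untreated replicate 2 (0.0942), and it was 0.71 (0.0258) without Dex + E2 replicate 1. The mean E2 difference on 1451177_at passed without E2 replicate 1 or either Dex + E2 array and was lost without each of the other 5. The mean Dex difference was lost without either Untreated array, either Dex array or E2 replicate 1 (0.0734 to 0.115).

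Genes whose levels followed 1451177_at most closely over the 8 arrays, by Pearson correlation among 19785 probe sets of other genes above the median level, were Paxx (0.986), Tap1 (0.977), Per2 (0.972), Klf9 (0.961) and Btbd9 (0.959). These points share the split between hormone and Untreated arrays, and the genes were picked as the highest of 19785. Those picked in the same way for Hspb1, which did not pass, reached 0.942 to 0.973. Whether any of them is controlled together with Dnajb4 was not tested. The sizes differed: Per2, a clock gene, was 0.81 above Untreated with Dex, 1.16 with E2 and 1.18 with Dex + E2, and Paxx, a DNA repair factor, was 0.17, 0.21 and 0.20 above it.

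Dnaja1, a DnaJ protein of class A with a role in receptor folding, did not pass. On 1416288_at, its probe set with the highest mean, it read 11.93 and 11.87 with Dex, 11.88 and 11.93 with E2, 11.81 and 11.94 with Dex + E2, against 11.68 and 11.75 in Untreated. All 6 hormone arrays lay above both Untreated arrays, as they did on 1460179_at. On 1459835_s_at each hormone group overlapped Untreated. The share of all probe sets with this pattern, given here for Dnajb4 and Dnaja1, was not computed. In single comparisons with Untreated, 34.7% of all probe sets did not overlap with Dex, 34.9% with E2 and 33% with Dex + E2. These comparisons share the Untreated arrays, so the pattern is not read as a rise of Dnaja1. The differences on 1416288_at were 0.19 with Dex, 0.19 with E2 and 0.16 with Dex + E2, with limma adjusted p of 0.925, 0.932 and 0.704. The largest over its 3 probe sets was 0.26 ± 0.101 for Dex + E2 on 1460179_at (adjusted p = 0.517).

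In single comparisons, the 2 arrays of one group and the 2 of the other did not overlap for 9 of 21 member probe sets with Dex, 6 with E2 and 10 with Dex + E2, where 34.7%, 34.9% and 33% of all probe sets did not overlap. It was 8 of 21 for Dex + E2 against Dex (31.3% of all) and 5 of 21 for Dex + E2 against E2 (39.9% of all). Dnajb1, a heat-inducible DnaJ protein, did not pass. Its 1416755_at read 10.22 and 10.26 with Dex, 10.16 and 10.22 with E2, 10.14 and 10.17 with Dex + E2, and 10.18 and 10.22 in Untreated. Its differences over both probe sets and the 3 comparisons with Untreated lay between -0.10 and 0.04 log2 units.

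**Figure D3:**
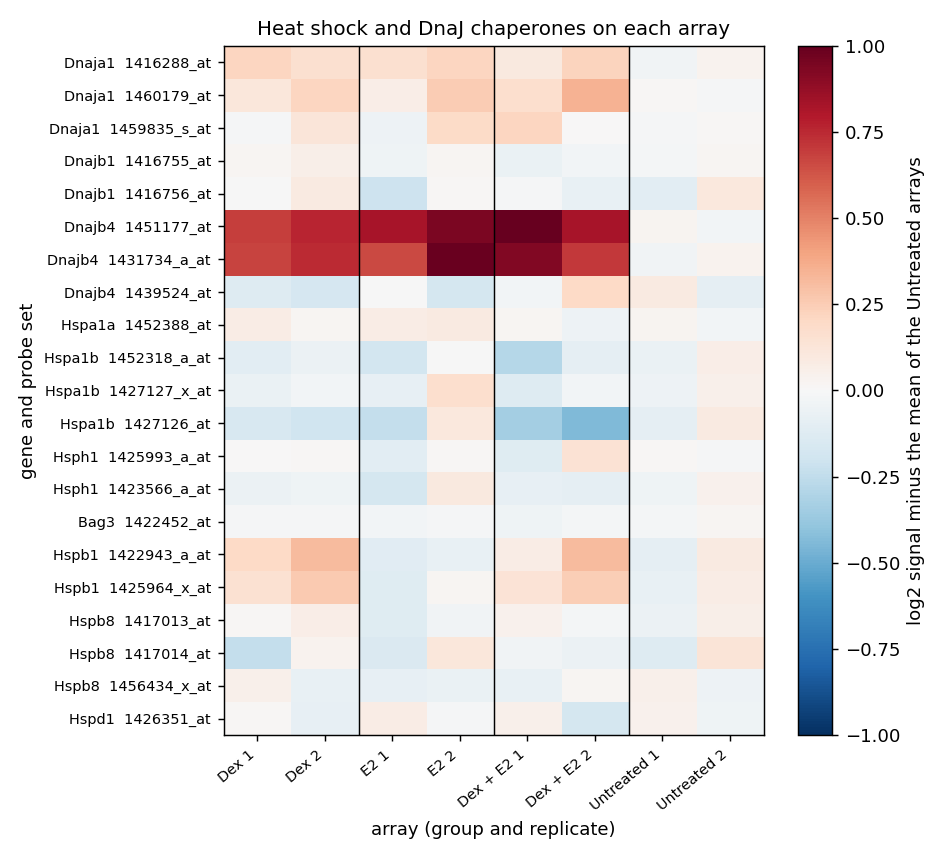
Log2 signal of each of the 21 member probe sets on each array, less the mean of the Untreated arrays of that probe set (colour, log2 units; rows, gene and probe set; columns, arrays by group and replicate). The rows of 1451177_at and 1431734_a_at of Dnajb4 stand out on all 6 hormone arrays, with group differences of 0.71 to 0.91 from Untreated.

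Hspa1a and Hspa1b encode almost the same inducible HSP70 protein from neighbouring copies on chromosome 17 (GRCm38.p6, chr17:34969359-34972156 and chr17:34956429-34959238). Their promoter windows shown above are identical at 247 of 250 positions. Whether a probe set named for one copy also reads the other was not tested, and the copies are reported as uncertain. The probe set named Hspa1a, 1452388_at, was dim (percentile 11.6) and stood at 3.61 to 3.76 on all 8 arrays. Of the 3 named Hspa1b, 1452318_a_at was the brightest. It read 8.61 and 8.66 with Dex, 8.53 and 8.71 with E2, 8.43 and 8.63 with Dex + E2, and 8.65 and 8.79 in Untreated. Its Dex + E2 difference was -0.19 (limma adjusted p = 0.704). Among differences from Untreated the lowest of any member was that of 1427126_at, another Hspa1b probe set, with Dex + E2: it read 7.05 and 6.95 with Dex + E2, against 7.30 and 7.49 in Untreated, a difference of -0.39 ± 0.12 (limma adjusted p = 0.324, unadjusted p = 0.00817). The third Hspa1b probe set, 1427127_x_at, was -0.08 from Untreated in that comparison, so all 3 were below Untreated there and differed in size.

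Hsph1, an HSP110 protein that acts as an exchange factor for HSP70, stayed within 0.09 log2 units of Untreated on both probe sets with every treatment. Its brighter probe set, 1425993_a_at, read 10.39 and 10.40 with Dex, 10.28 and 10.40 with E2, 10.26 and 10.53 with Dex + E2, and 10.40 and 10.37 in Untreated. Bag3, an exchange factor that also steers HSP70 clients to autophagy together with Hspb8, had the smallest standard error of the set, 0.0807. Its probe set read 10.68 and 10.67 with Dex, 10.66 and 10.67 with E2, 10.64 and 10.67 with Dex + E2, and 10.67 and 10.71 in Untreated. The 95% interval of its Dex difference was -0.19 to 0.17 log2 units.

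Hspb1, a small heat shock protein that binds unfolding proteins and actin filaments, had the largest differences with Dex outside Dnajb4, none past the threshold. On 1422943_a_at it read 10.57 and 10.68 with Dex, 10.25 and 10.29 with E2, 10.44 and 10.69 with Dex + E2, and 10.28 and 10.46 in Untreated. The arrays with Dex, alone or with E2, lay above those with E2 alone. Dex + E2 minus E2 was 0.29 (limma adjusted p = 0.361), where 39.9% of all probe sets did not overlap. E2 minus Dex was -0.35 (limma adjusted p = 0.386), and the share not overlapping was not computed for it. Dex + E2 overlapped Untreated on this probe set and did not on 1425964_x_at. On 1422943_a_at the difference from Untreated was 0.26 ± 0.108 with Dex (limma adjusted p = 0.818), -0.10 with E2 and 0.20 with Dex + E2. Without Untreated replicate 1 these were 0.17, -0.18 and 0.11, without Untreated replicate 2 they were 0.34, -0.01 and 0.28, and the Dex + E2 difference was 0.32 without Dex + E2 replicate 1 and 0.07 without Dex + E2 replicate 2. The Dex effect averaged over both E2 states was 0.27 ± 0.0764 (limma adjusted p = 0.18, unadjusted p = 0.00484), and 0.23 ± 0.0694 on 1425964_x_at (adjusted p = 0.24). Without Dex + E2 replicate 1 the average on 1422943_a_at was 0.34 and passed (adjusted p = 0.0381), and without each of the other 7 arrays it was 0.21 to 0.32 and did not.

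Hspb8, the partner of Bag3, was at 10.66 and 10.72 with Dex, 10.53 and 10.62 with E2, 10.69 and 10.63 with Dex + E2, and 10.59 and 10.71 in Untreated on its brightest probe set, 1417013_at. Over its 3 probe sets the differences from Untreated lay between -0.10 and 0.04. Hspd1, the mitochondrial chaperonin HSP60, was at percentile 99.1 of mean level. It read 12.83 and 12.74 with Dex, 12.89 and 12.81 with E2, 12.87 and 12.65 with Dex + E2, and 12.86 and 12.78 in Untreated. Its groups overlapped in all 3 comparisons.

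For the 9 genes without a call the arrays limit how small a change could be seen. Of their 18 probe sets, 18 had a 95% interval within 0.5 log2 units of 0 with Dex, 18 with E2 and 17 with Dex + E2, each interval taken on its own. Among the 18 is the dim 1452388_at (percentile 11.6), the 1 probe set named Hspa1a. Dim probe sets show smaller changes, so its interval does not bound a change of that transcript. The widest bounds were -0.44 and 0.50 with Dex, -0.33 and 0.39 with E2 and -0.66 and 0.48 with Dex + E2. The median difference over all 21 member probe sets was 0.04 with Dex, -0.02 with E2 and -0.02 with Dex + E2, and over all probe sets 0.0014, -0.01 and 0.0035.

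**Figure D4:**
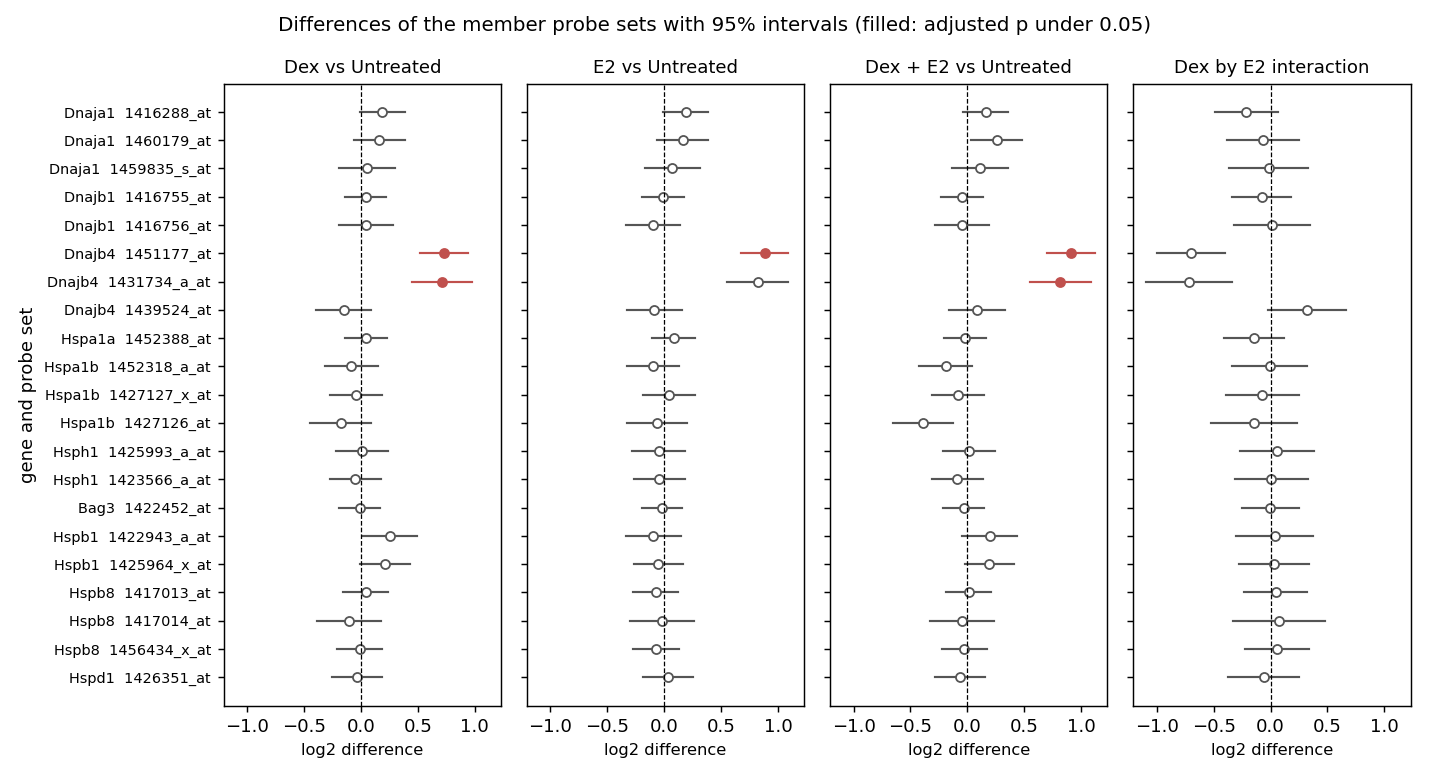
Log2 differences of the 21 member probe sets (points) with 95% intervals from limma (lines) for Dex, E2 and Dex + E2 against Untreated and for the Dex by E2 interaction. Filled red points passed an adjusted p under 0.05; they are 1451177_at in the 3 comparisons with Untreated and 1431734_a_at in those of Dex and Dex + E2.

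Around these genes stood 98 further heat shock and chaperone genes in 9 lists, of which 93 had a probe set with 1 symbol. The lists were heat shock factors, other HSP70 and HSP110 proteins, other DnaJ proteins of classes A and B, DnaJ proteins of class C, other small heat shock proteins, the HSP90 family, other chaperonins, other exchange factors, and co-chaperones of HSP70 and HSP90. With Dex 1 of the 93 rose and 0 fell, with E2 0 changed and with Dex + E2 0 changed, over 218 probe sets whose median differences were -0.0053, 0.03 and -0.0097. Of all probe sets 0.924% were called with Dex, 0.0355% with E2 and 0.844% with Dex + E2, so 1 called probe set of 218 is no more than the background. The 3 comparisons share the Untreated arrays. Class C, the largest list, had 0 of 25 measured genes past the threshold in each comparison with Untreated, and 0 of 3 HSP90 genes and 0 of 9 chaperonins passed. Hsf1, Hsp90ab1, Dnajc19, Ptges3 and Ppid are not analysed here.

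The gene that passed was Dnaja4, a DnaJ protein of class A, on 1434196_at. It read 4.54 and 4.55 with Dex, 4.01 and 4.05 with E2, 4.57 and 4.15 with Dex + E2, against 3.90 and 3.93 in Untreated. Both Dex arrays lay above both E2 arrays and both Untreated arrays, and the probe set is dim (percentile 22.1). It rose by 0.63 ± 0.123 with Dex (limma adjusted p = 0.0441), and averaged 0.48 ± 0.0869 higher with Dex over both E2 states (adjusted p = 0.0224), a call lost without any 1 of the Untreated, Dex or E2 arrays (0.0765 to 0.121). With Dex + E2 it was 0.44 above Untreated without passing (limma adjusted p = 0.238), and with E2 0.11. The Dex call was lost with the arrays centred on their medians (adjusted p = 0.0604) and without Untreated replicate 1, Untreated replicate 2, Dex replicate 1, Dex replicate 2 or either E2 array (0.0762 to 0.361). Without Dex + E2 replicate 2 the Dex + E2 difference was 0.65 and passed (0.0151). The other 2 Dnaja4 probe sets were 0.26 and 0.23 above Untreated with Dex and did not pass, though 1418592_at passed with Dex + E2 without Dex + E2 replicate 1 (0.50, adjusted p = 0.0465). With all 3 averaged, Dnaja4 passed with Dex (0.38, limma adjusted p = 0.0499) and with Dex + E2 (0.40, adjusted p = 0.0387).

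**Figure D5:**
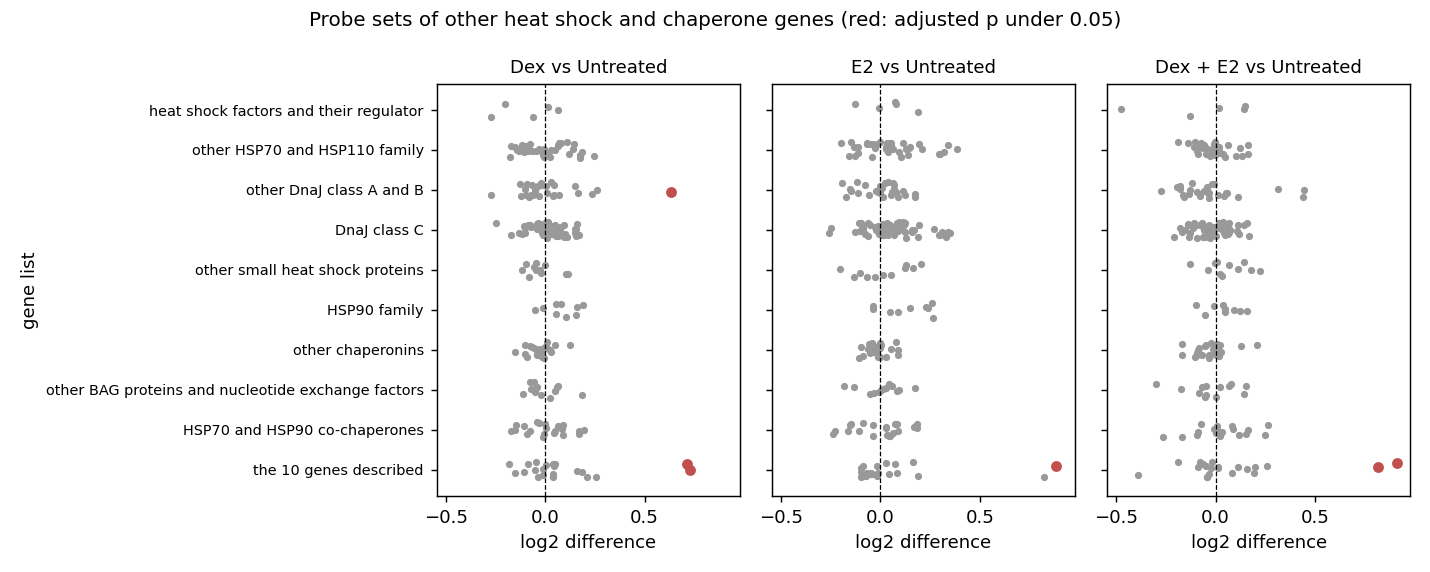
Log2 differences from Untreated of 218 probe sets of other heat shock and chaperone genes in 9 lists, with the 21 member probe sets in the lowest row (x axis, log2 units; panels, Dex, E2 and Dex + E2). Red points passed an adjusted p under 0.05: 1 Dnaja4 probe set with Dex, and Dnajb4 probe sets in every panel.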

How the data were processed

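RNA was measured on 8 Affymetrix mouse arrays, 4 groups of 2, assigned from the sample labels. The deposited values are log2 signals made with RMA in Affymetrix Expression Console, per the submitters' processing notes; no version is given there. RMA corrects background, gives the probe signals of all arrays 1 distribution and then summarises each probe set. Levels of different probe sets also depend on their probes, so percentiles of level are a rough guide, and dim probe sets show smaller changes.

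Of 45101 probe sets, 64 controls were left out and 45037 were tested. The platform annotation names 34958 probe sets with 1 symbol and 932 with several, and 9211 are not listed. Members were matched by that 1 symbol. Limma (version 3.58.1, R 4.3.3) fitted 4 group means on the log2 values of all 8 arrays (4 residual and 6.29 prior degrees of freedom), with Benjamini-Hochberg adjustment over 45037 probe sets. With 2 arrays a group, a difference had a median standard error of 0.102. The code of the fit was checked on simulated arrays drawn with the fitted spread. These hold no array effects, so that check says nothing of how the real arrays vary. Members and lists were chosen with earlier results of these data known. The 9 lists, markers and named genes follow a fixed rule: every member, up to 4 called genes per list, 3 hormone targets, and the 5 probe sets most correlated with the leading members; those of Hspb1, which did not pass, are Tenm2, Vps52, Rlim, Vdac1 and Mthfd2 (0.942 to 0.973). E2 minus Dex was added after values were seen. Promoters are from RefSeq (GRCm38.p6), used for names and sequence only. No scan date or slide was given in the sources used here.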

Additional observations from a re-analysis of the deposited data

How the results depend on the processing

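Settings other than the reported fit numbered 15. They were the brightest probe set per gene, probe sets averaged per gene, a trended and robust prior, probe sets above the median level, arrays centred on their median, the replicate number as a block, the 4 arrays of a comparison alone, and 8 fits that leave out 1 array each. Over 2223 recomputed differences of single member probe sets, 2195 kept their side of the threshold, 22 lost a call, 6 gained one and 0 called values changed sign; 170 values that passed in neither fit did change sign. Of 1918 for genes other than Dnajb4, 1 passed, that of Hspb1. The count of member probe sets called with E2 became 2 with the trended and robust prior (1431734_a_at, adjusted p = 0.0218), against 1. The count for the mean E2 effect became 0 with the replicate block (1451177_at, adjusted p = 0.0596), against 1, and no other member call changed with the block; the Dex call of Dnaja4 did (adjusted p = 0.0785). Deviations of same-numbered arrays correlated at 0.16 to 0.312 among Untreated, Dex and E2 and at -0.248 to -0.105 between each of these and Dex + E2, so the numbers were not taken as pairs over all groups. With 1 array left out the count ran from 0 to 2 for Dex, 0 to 2 for E2, 1 to 2 for Dex + E2, 0 to 2 for the mean Dex effect and 0 to 1 for the mean E2 effect; it was 0 throughout for the other 3 comparisons. A group with 1 array left is assumed to vary like the others. Averaged over its probe sets Dnajb4 differed from Untreated by less, 0.43 with Dex, 0.54 with E2 and 0.60 with Dex + E2, since the dim 1439524_at enters, and all 3 passed. Over the whole table E2 had 46 calls with the trended and robust prior, 24 in arrays centred on their median and 3 to 37 with 1 array left out, against 16. Dex + E2 had 222 with its 4 arrays alone and 169 to 1436 with 1 array left out, against 380, and Dex had 170 to 498 with 1 left out, against 416. The mean E2 effect had 76 calls with the trended and robust prior and 3 to 71 with 1 left out, against 24. With 1 left out Dex + E2 against E2 had 30 to 1974 (151), Dex + E2 against Dex 0 to 168 (3), the interaction 0 to 29 (1) and the mean Dex effect 349 to 1666 (618). The highest counts for Dex + E2 against Untreated, the mean E2 effect and these 4 came without Dex + E2 replicate 1. That fit leaves Dex + E2 replicate 2 alone in its group. Replicate 2 was the array with the lowest mean correlation with the others (0.9951). The trended and robust prior gave 5 for Dex + E2 against Dex and 6 for the interaction, and probe sets above the median level gave 0 for Dex + E2 against Dex. The cause was not tested. Dim probe sets (1439524_at, 1452388_at) limit what can be read of Dnajb4 and Hspa1a.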
